A study of Mus musculus with 24 samples.

Results

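The 47 genes whose symbols start with Nduf, the nuclear genes named for NADH:ubiquinone oxidoreductase (respiratory complex I), were described in left ventricles of mice under a combined metabolic and hypertensive stress and after it. They were all the symbols of the deposited table that begin with these letters, 0 of them carried the pseudogene suffix -ps, and all 47 had a level of at least 1 TPM (the number of transcripts of a gene, corrected for transcript length and scaled to the same total in each library) in all 24 libraries. The table held 24972 gene symbols, of which 13058 passed the same minimum in at least 3 libraries and were tested. There were 8 groups of 3 libraries, each made from messenger RNA of the left ventricular free wall of C57Bl6/J mice. The groups were males and females given MHS, a metabolo-hypertensive stress that joins a high-fat diet to angiotensin II, at day 28, male and female Control mice at day 28, males and females at day 56 under the title MHS + RR (MHS followed by reverse remodeling), and male and female Control mice at day 56. The labels gave no ages and did not say how the stress was ended in the MHS + RR mice. Time and treatment tags went against the titles for 12 libraries. Those titled MHS at day 28 carried the tags of untreated mice at day 56, and those titled Control at day 56 carried the tags of angiotensin II with high-fat diet at day 28, so groups were taken from the titles and the group tag.

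Complex I is the entry point of electrons from NADH into the mitochondrial respiratory chain. Its peripheral arm, in the matrix, oxidises NADH and passes the electrons through flavin and iron-sulfur clusters to ubiquinone, and its membrane arm pumps protons. The core subunits carry out this chemistry, the accessory subunits surround and stabilise them, and assembly factors help to build the enzyme without staying in it. Heart muscle, which draws most of its ATP from oxidative phosphorylation, holds large amounts of the complex.

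Of the 47 genes, 7 encode the nuclear core subunits, 9 accessory subunits of the peripheral arm, 9 those of the proximal membrane arm, 10 those of the distal membrane arm, 1 the acyl carrier subunit Ndufab1 and 8 assembly factors. Ndufb4c was placed in no role group. The remaining 2, Ndufa4 and Ndufa4l2, are named as complex I genes by history only, since Ndufa4 is now known as a subunit of complex IV and Ndufa4l2 as its paralog that responds to hypoxia. The mitochondrially encoded core subunits, mt-Nd1 and its relatives, were not analysed here, as 0 of 7 were in the table.

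These genes were among the highly expressed ones of the ventricle. Their median level was 755 TPM over all libraries, against 14.0 TPM for all tested genes, and they ranged over 13.7 TPM for Ndufaf5 and 4050 TPM for Ndufa4. Behind Ndufa4 stood Ndufa3 at 2285, Ndufb8 at 2124, Ndufb9 at 1981, Ndufb10 at 1969 and Ndufab1 at 1755 TPM. By role, mean levels were 611 TPM (Ndufs8) to 953 TPM (Ndufs7) for the core subunits described here, 272 to 1589 TPM for the accessory subunits of the peripheral arm, 158 to 2285 TPM for those of the proximal and 374 to 2124 TPM for those of the distal membrane arm. The assembly factors, at 13.7 to 105 TPM, all lay below every subunit. The coefficient of variation over the 24 libraries was 5.42% for Ndufb9, the steadiest, and 15.2% for Ndufs5, the most variable. Ndufs5 owed its spread in part to 1 library, female Control day 28 replicate 2, with 143 TPM, against 207 TPM or more elsewhere.

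Ndufb4c was one of the more variable genes as well, with 365 to 594 TPM and a coefficient of variation of 12.4%. Its annotated transcript of 390 bases was identical over its whole length to part of the 971 bases of an Ndufb4 transcript, so reads could have been split between them and the level of each is uncertain.

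Several libraries stood apart. Ventricular cardiomyocyte markers were high in every library, at a summed 120553 to 148608 TPM for 10 genes. The atrial markers Myl7 and Sln were at 625 and 173 TPM in female Control day 28 replicate 2, at 125 and 24.2 TPM in female MHS replicate 3 and at 57.3 and 12.7 TPM in male MHS + RR replicate 1, against at most 12.4 and 3.51 TPM in the other libraries. Female MHS + RR replicate 3 held 31.7 TPM of 4 Y-linked genes, 26.1% of the mean of the male libraries, where the other female libraries held at most 2.12 TPM. Its level of Xist, which was at most 0.17 TPM in male libraries, was 17.3 TPM, against 23.8 to 50.3 TPM in the other female libraries. Of each library's deviation from the mean of all libraries, transcript GC content and length explained 27.5% in male MHS + RR replicate 2 and, in replicate 1 of the male Controls, 28.4% at day 28 and 31.8% at day 56, against 1.95% to 16.3% in the others. Of these libraries 5 were left out together in one of the settings, and female MHS replicate 3 and male MHS + RR replicate 1, with lower atrial levels, were left out only singly. By the longest annotated transcript of each gene, Nduf transcripts are short, with a median of 1141 bases against 3338 for tested genes. Which transcript of a gene was expressed is not known here. As a check of the titles, 6 wall stress genes were summed. They were at 8112 to 8953 TPM in MHS males and 2068 to 2460 TPM in day 28 Control males. In MHS females they were at 4219 to 8421 TPM, against 1543 to 1953 TPM in day 28 Control females. In the libraries titled Control at day 56, which were tagged as stressed, they were at 1697 to 3423 TPM in males and 1743 to 2426 TPM in females.

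In this table, which held 0 mitochondrially encoded genes, the 47 Nduf genes together made up 3.67% to 4.63% of each library's total TPM. Their sum was 39471, 38553 and 37022 TPM in MHS males, against 43421, 44304 and 39696 TPM in Control males at day 28. All 3 MHS males lay below all 3 Controls, with a narrow gap between MHS replicate 1 and Control replicate 3. In females the sums overlapped, at 41096, 37735 and 36658 TPM under MHS and 40024, 39111 and 38507 TPM in Controls. At day 56, MHS + RR males had 42913, 46298 and 41759 TPM, against 42008, 41181 and 40933 TPM in Control males. MHS + RR females had 40596, 43212 and 40978 TPM, against 41716, 39504 and 39235 TPM in Control females. Both day 56 pairs of groups overlapped. These are bulk samples, in which fewer cells of a type and less RNA per cell cannot be told apart.

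**Figure D1:**
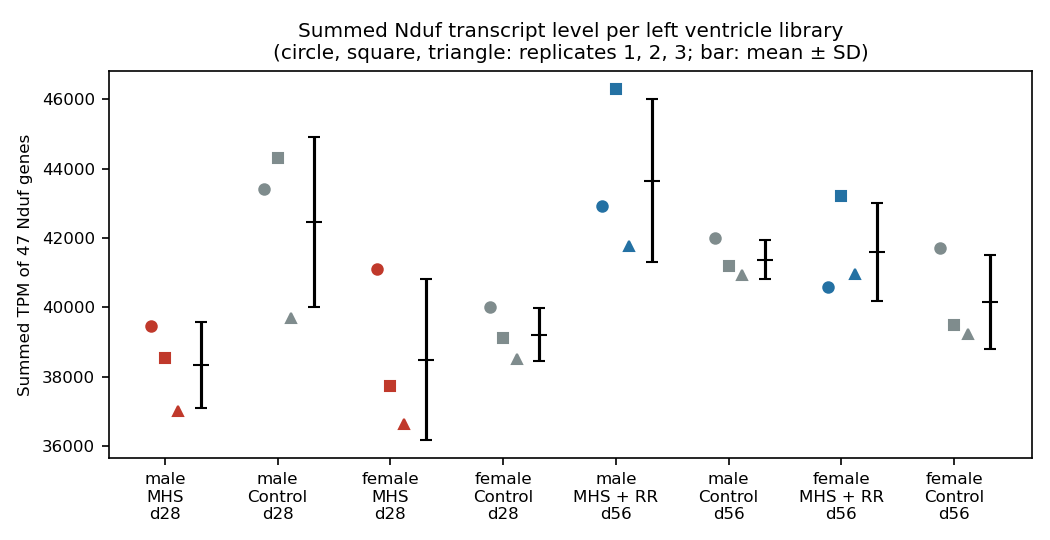
Summed TPM of the 47 Nduf genes (vertical axis, not starting at 0) in each of the 24 libraries, by sex, condition and day, with the mean ± SD of each group of 3 in black. Male MHS libraries (37022 to 39471 TPM) lie below male day 28 Controls (39696 to 44304 TPM), and the other 3 pairs of groups overlap.

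In MHS males, transcripts of 3 core subunits and of 6 accessory subunits of complex I were lower than in Control males. With limma, fitted to log2(TPM + 1) over all 24 libraries and adjusted by the Benjamini-Hochberg method over all tested genes, 9 of the 47 genes fell and 0 rose at an adjusted p under 0.05, where 2.52% of all tested genes fell and 7.71% rose. They were the core subunits Ndufv1, Ndufs1 and Ndufs7, the peripheral accessory subunits Ndufa9, Ndufa5, Ndufs6 and Ndufs4, and the distal subunits Ndufb11 and Ndufb9. The median log2 fold change was -0.14 for the 47 genes and 0.08 for all tested genes. For the 47 genes it was below 0 in all 12 other settings, at -0.22 with median-of-ratios scaling and -0.11 with GC content and length corrected. The value nearest 0 was -0.04 with libraries grouped by the tags, where both groups are titled Control. All 47 lay below that all-gene median, and 44 lay below 0. The TPM ranges of 19 genes were separate and lower in MHS males and those of 0 were separate and higher, where 7.7% and 19.0% of tested genes were so. Each change was small, and among the called genes Ndufb9 fell by 11.7% and Ndufv1 fell by 17.8% on the TPM + 1 scale, the lowest and the highest figure.

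**Figure D2:**
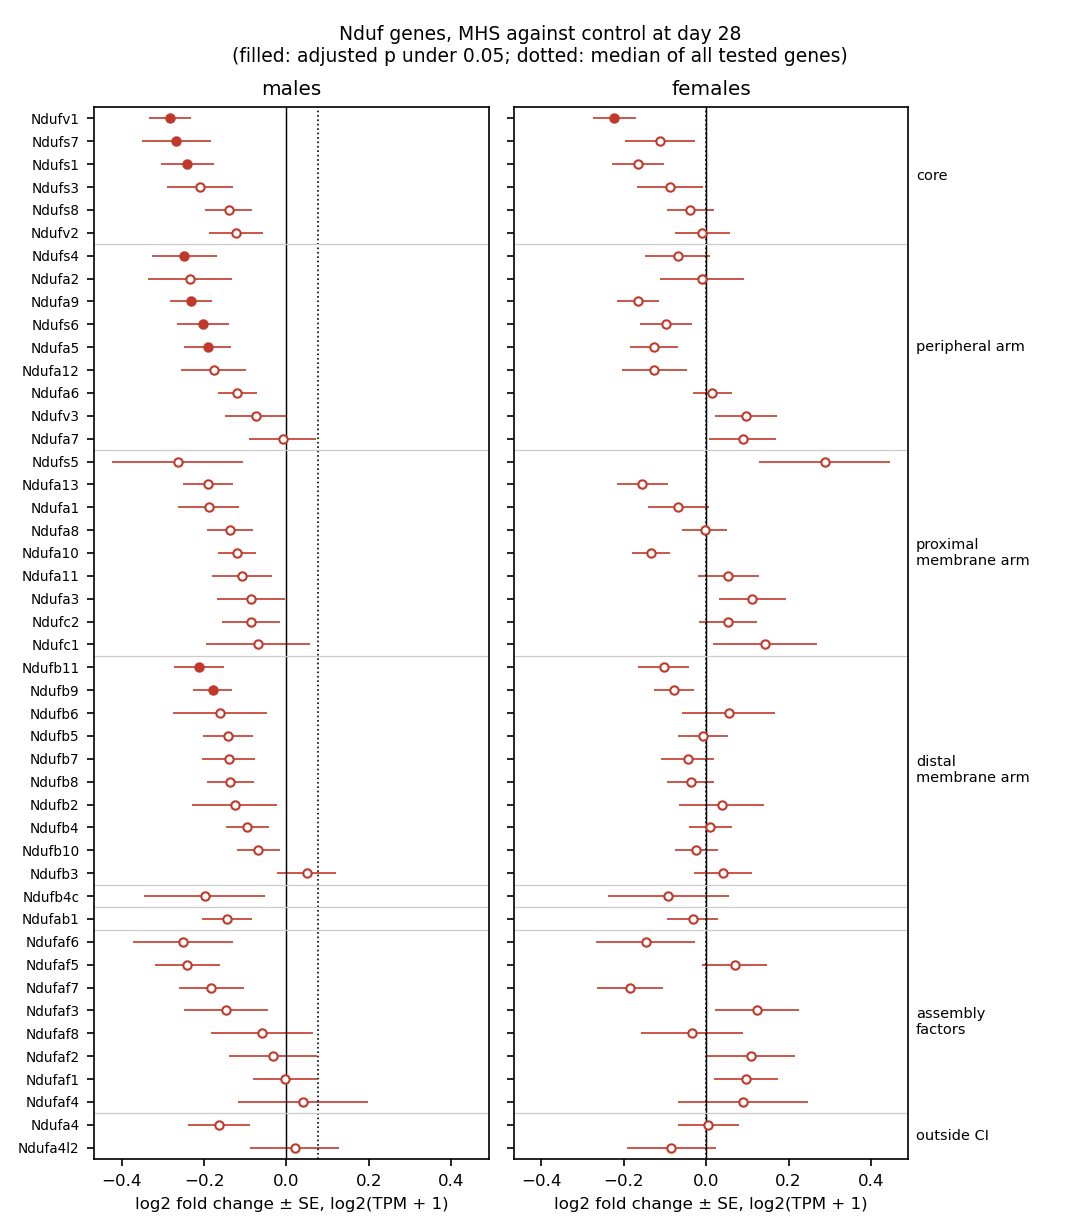
Log2 fold change of 46 Nduf genes under MHS against Control at day 28, with its standard error, in males (left) and females (right), by role and then by the male value; filled points passed the adjusted p of 0.05 and the dotted line is the median of all tested genes. In males 43 points lie left of 0 and 9 are filled; in females 28 lie left of 0 and only Ndufv1 is filled.

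Ndufv1, the flavin-bearing subunit that takes electrons from NADH, changed most clearly. It had 741, 787 and 715 TPM in MHS males, against 961, 924 and 846 TPM in Control males. The ranges were separate, and the log2 fold change was -0.28 ± 0.05 (SE), with an adjusted p of 0.0013. Ndufs1, the largest core subunit and the holder of several iron-sulfur clusters, had 569, 577 and 493 TPM in MHS males, against 608, 643 and 683 TPM in Control males. It fell by 0.24 on the log2 scale (adjusted p = 0.0196), with MHS replicate 3 the lowest library of the series for this gene. Ndufs7, which carries the last iron-sulfur cluster before ubiquinone, had 895, 818 and 791 TPM in MHS males, against 1045, 1101 and 878 TPM in Control males. It fell by 0.27 (adjusted p = 0.0491), but the ranges overlapped, as Control replicate 3 lay within those of MHS, and the call lies at the threshold.

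Ndufs3, Ndufs8 and Ndufv2, also core subunits, had negative fold changes that did not pass. Ndufs3 had 765, 745 and 700 TPM in MHS males, against 908, 893 and 763 TPM in Control males (log2 fold change -0.21, adjusted p = 0.105). Its MHS and Control ranges met only at MHS replicate 1 and Control replicate 3. Ndufs8, a subunit with a pair of iron-sulfur clusters, had 576, 587 and 571 TPM in MHS males, against 661, 663 and 590 TPM in Control males (-0.14, adjusted p = 0.131). Ndufv2, the iron-sulfur partner of Ndufv1, had 981, 895 and 883 TPM in MHS males, against 1076, 1005 and 924 TPM in Control males (-0.12, adjusted p = 0.272). For Ndufs8 the groups were separate by a narrow gap, and for Ndufv2 they overlapped.

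Among the accessory subunits of the peripheral arm, 4 of 9 fell in MHS males, and the median of the group was -0.19. Ndufa9, which sits at the junction of the arms near the ubiquinone site, had 652, 678 and 638 TPM in MHS males, against 761, 814 and 738 TPM in Control males. This was a fall of 0.23 ± 0.05 on the log2 scale (adjusted p = 0.0063) with clearly separate groups. Ndufa5 had 1535, 1398 and 1471 TPM in MHS males, against 1582, 1785 and 1667 TPM in Control males (-0.19, adjusted p = 0.0392). Ndufs6, a zinc-binding subunit, had 1224, 1189 and 1158 TPM in MHS males, against 1381, 1441 and 1289 TPM in Control males (-0.20, adjusted p = 0.0462). Ndufs4, whose loss causes a Leigh-like disease in mice and humans, had 266, 244 and 226 TPM in MHS males, against 294, 305 and 275 TPM in Control males (-0.25, adjusted p = 0.0486). In these 3 genes all MHS males lay below all Control males. The other 5 peripheral subunits had fold changes of -0.23 (Ndufa2), -0.18 (Ndufa12), -0.12 (Ndufa6), -0.07 (Ndufv3) and -0.01 (Ndufa7), none of which passed.

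In the membrane arm the calls were on the distal side only. Ndufb11 had 796, 807 and 759 TPM in MHS males, against 951, 956 and 835 TPM in Control males (-0.21, adjusted p = 0.0312). Ndufb9, an accessory subunit that binds the acyl carrier protein, had 1841, 1885 and 1745 TPM in MHS males, against 2124, 2130 and 1943 TPM in Control males (-0.18, adjusted p = 0.0208). Both sets of ranges were separate. None of the 9 proximal subunits passed, with a median of -0.12. The lowest p was that of Ndufa13, with 612, 625 and 595 TPM in MHS males, against 692, 744 and 658 TPM in Control males (-0.19, adjusted p = 0.0525), also with separate ranges. Ndufb3, a small distal subunit, was the highest of all 47 at 0.05. Whether the arms differ from each other in their response was not tested. Ndufab1, the mitochondrial acyl carrier protein, had 1757, 1685 and 1525 TPM in MHS males, against 1908, 1901 and 1680 TPM in Control males (-0.14, adjusted p = 0.153).

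The male count moved with single libraries and with the grouping. Ndufv1 and Ndufa9 were called in all 24 fits that each left out 1 library, Ndufs1 and Ndufb9 in 21, Ndufa5 in 20, Ndufb11 in 19, Ndufs6 in 10, Ndufs4 in 8 and Ndufs7 in 7. The count of 9 became 2 without male Control day 28 replicate 2 or without male MHS replicate 3, 4 without male Control day 28 replicate 1 or male MHS replicate 2, and 15 without male Control day 28 replicate 3. It was 4 without the 5 libraries left out together (female Control day 28 replicate 2, female MHS + RR replicate 3, male Control day 28 replicate 1, male Control day 56 replicate 1 and male MHS + RR replicate 2). In a fit of the 2 compared groups alone, 0 of the 47 genes were called. With libraries grouped by the time and treatment tags 0 were called as well. That grouping sets males titled Control at day 56 against males titled Control at day 28.

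The assembly factors showed no called change in MHS males, with a median of -0.10 over 8 genes. Ndufaf5, a methyltransferase-like factor that acts on Ndufs7, had 12.5, 12.3 and 12.0 TPM in MHS males, against 14.4, 16.3 and 13.4 TPM in Control males (-0.24, adjusted p = 0.0587), with separate ranges. Ndufaf6 had 20.2, 21.9 and 21.8 TPM in MHS males, against 27.6, 27.6 and 21.8 TPM in Control males (-0.25, adjusted p = 0.212). Ndufaf7, a methyltransferase that acts in assembly, had 18.6, 21.8 and 22.8 TPM in MHS males, against 23.0, 25.8 and 23.1 TPM in Control males (-0.18, adjusted p = 0.16). Ndufaf7 had separate ranges, by a narrow gap between MHS replicate 3 and Control replicate 1. Ndufaf3 had 37.4, 37.7 and 35.4 TPM in MHS males, against 46.9, 42.4 and 34.4 TPM in Control males (-0.15). Ndufaf1, a factor of the membrane arm, had 89.4, 80.6 and 87.8 TPM in MHS males, against 77.6, 91.0 and 90.3 TPM in Control males (0.00). Both overlapped. Ndufaf2, which acts late in assembly, had 53.6, 53.2 and 55.5 TPM in MHS males, against 54.0, 51.4 and 61.3 TPM in Control males (-0.03). Ndufaf4 had 49.9, 42.2 and 46.2 TPM in MHS males, against 35.8, 50.6 and 49.1 TPM in Control males (0.04), and Ndufaf8 had 104, 105 and 91.8 TPM in MHS males, against 107, 115 and 93.2 TPM in Control males (-0.06). These 3 overlapped as well. Outside complex I, Ndufa4 had 4133, 3773 and 3571 TPM in MHS males, against 4346, 4619 and 3904 TPM in Control males (-0.16, adjusted p = 0.183). Ndufa4l2 had 43.6, 50.5 and 44.1 TPM in MHS males, against 47.3, 43.2 and 45.5 TPM in Control males (0.02), and the ranges of both genes overlapped.

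In females Ndufv1 alone was called. It had 812, 773 and 746 TPM in MHS females, against 900, 931 and 887 TPM in Control females. The groups were separate, with a log2 fold change of -0.22 ± 0.05 and an adjusted p of 0.0119, where 2.36% of tested genes fell and 3.4% rose. The call was lost without female Control day 28 replicate 2, female MHS replicate 2 or female MHS replicate 3, without the 5 libraries left out together, with median-of-ratios scaling and in a fit of the 2 compared groups alone. The median of the 47 genes was -0.03, beside 0.00 for all tested genes, and 29 of 47 lay below 0. TPM ranges were separate and lower for 9 genes and separate and higher for 1, where 12.1% and 11.4% of tested genes were so. With libraries grouped by the time and treatment tags, where both groups are titled Control, 0 genes were called in females and the median was 0.03.

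Other subunits of the male list had female values in the same direction without passing. Ndufa9 had 659, 627 and 629 TPM in MHS females, against 727, 701 and 719 TPM in Control females (-0.17, adjusted p = 0.0662). Ndufs1 had 579, 579 and 640 TPM in MHS females, against 675, 637 and 704 TPM in Control females (-0.16, adjusted p = 0.154). The groups of Ndufa9 were separate, and those of Ndufs1 met at 1 library of each. Ndufs7 had 973, 829 and 803 TPM in MHS females, against 984, 960 and 866 TPM in Control females (-0.11, adjusted p = 0.571). The groups of Ndufs7 overlapped. Ndufs3 had 828, 710 and 667 TPM in MHS females, against 807, 771 and 756 TPM in Control females (-0.09). Ndufs8 had 623, 556 and 540 TPM in MHS females, against 580, 609 and 573 TPM in Control females (-0.04). Ndufv2 had 996, 853 and 813 TPM in MHS females, against 896, 911 and 862 TPM in Control females (-0.01). In these 3 core subunits MHS replicate 1 was above all 3 Controls and MHS replicates 2 and 3 were below all 3. Ndufs5 had the highest female value, 0.29, from 245, 247 and 255 TPM in MHS females, against 262, 143 and 226 TPM in Control females, with the low Control library named above (adjusted p = 0.367).

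Of the accessory subunits called in males, Ndufa5 had 1511, 1359 and 1437 TPM in MHS females, against 1531, 1613 and 1552 TPM in Control females (-0.13, adjusted p = 0.248). Ndufb11 had 858, 818 and 798 TPM in MHS females, against 860, 934 and 865 TPM in Control females (-0.10), and Ndufb9 had 1905, 1857 and 1859 TPM in MHS females, against 1958, 2018 and 1954 TPM in Control females (-0.08). All 3 were separate and lower, Ndufb11 by a narrow gap. Ndufs6 had 1273, 1132 and 1115 TPM in MHS females, against 1328, 1207 and 1230 TPM in Control females (-0.10), and overlapped through MHS replicate 1. Ndufs4 had 282, 242 and 235 TPM in MHS females, against 280, 265 and 249 TPM in Control females. It overlapped too, as MHS replicate 1 was the highest of these libraries. Among the assembly factors, Ndufaf7 had 20.7, 22.0 and 22.2 TPM in MHS females, against 25.7, 26.0 and 22.7 TPM in Control females (-0.18, adjusted p = 0.207), with a narrow gap. Ndufaf1 had 82.2, 80.5 and 82.9 TPM in MHS females, against 77.2, 73.1 and 79.4 TPM in Control females (0.10), the 1 separate and higher gene of the 47. The female values of the other assembly factors overlapped with those of their Controls and were not called. Ndufaf4 was nearly even under MHS, with 50.6, 50.3 and 49.9 TPM in MHS females, against 51.6, 40.2 and 50.7 TPM in Control females (0.09). Ndufaf2 had 49.6, 57.1 and 65.4 TPM in MHS females, against 47.7, 48.1 and 64.2 TPM in Control females (0.11), and Ndufaf3 had 41.9, 38.2 and 39.8 TPM in MHS females, against 38.5, 39.0 and 32.6 TPM in Control females (0.12). Library 3 was the highest of its group for Ndufaf2 on both sides. Ndufaf5 had 15.6, 12.9 and 13.6 TPM in MHS females, against 12.2, 13.3 and 14.5 TPM in Control females (0.07). Ndufaf6 had 23.0, 21.5 and 18.9 TPM in MHS females, against 23.7, 23.6 and 23.0 TPM in Control females (-0.15), and Ndufaf8 had 102, 115 and 85.1 TPM in MHS females, against 99.7, 109 and 98.1 TPM in Control females (-0.03). Ndufaf6 in MHS replicate 1 lay just within the Control range. Outside complex I, Ndufa4 had 4145, 3921 and 3453 TPM in MHS females, against 3915, 3906 and 3626 TPM in Control females (0.01), and Ndufa4l2 had 49.7, 45.5 and 39.3 TPM in MHS females, against 49.0, 49.7 and 43.7 TPM in Control females (-0.08). Both overlapped.

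With the male and female effects averaged, 12 of the 47 genes fell under MHS and 0 rose, where 6.24% of tested genes fell and 11.6% rose. The median was -0.09 for the 47 genes and 0.04 for all tested genes. With libraries grouped by the time and treatment tags, where all the groups are titled Control, 0 genes were called and the median of the 47 was 0.00. Ndufv1 fell by 0.25 (adjusted p = 5.1e-05), Ndufa9 by 0.20 (adjusted p = 0.00064), Ndufs1 by 0.20 (adjusted p = 0.0033), Ndufa13 by 0.17 (adjusted p = 0.0080), Ndufa5 by 0.16 (adjusted p = 0.0096) and Ndufa10 by 0.13 (adjusted p = 0.0097). Ndufa13 is a proximal subunit also studied as a regulator of cell death, and Ndufa10 is a proximal subunit of the nucleoside kinase family. Ndufa10 had 1005, 1045 and 1008 TPM in MHS males, against 1151, 1096 and 1076 TPM in Control males, and 979, 905 and 924 TPM in MHS females, against 1035, 1018 and 1026 TPM in Control females. Ndufa13 had 644, 615 and 615 TPM in MHS females, against 681, 729 and 677 TPM in Control females, beside its male values above. In both genes and both sexes all MHS libraries lay below all Control libraries. The others included Ndufs6, Ndufs7, Ndufb9, Ndufb11 and the assembly factor Ndufaf7, which fell by 0.13 (Ndufb9) to 0.19 (Ndufs7). By role the calls included 3 of 9 peripheral, 2 of 9 proximal and 2 of 10 distal subunits and 1 of 8 assembly factors. Ndufs4 did not pass (-0.16, adjusted p = 0.0534). The count was 7 without the 5 libraries left out together. Of the 12 calls, 9 held in all 24 fits that each left out 1 library, and Ndufs6, Ndufaf7 and Ndufs7 held in 19, 19 and 16.

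No gene of the 47 was called as responding differently in the sexes. For the female minus male difference of the MHS effects 0 of 47 genes were called with limma, and 0.00766% of tested genes were called. An unadjusted p under 0.05 was found for 2 of the 47, beside 564 of all 13058 tested genes. The median of this difference was 0.11 for the 47 genes and -0.08 for all tested genes, and 43 of the 47 had the lower value in males. In both sexes 28 genes lay below 0, 2 lay above 0 and 17 had opposite signs. For the female minus male difference of the MHS + RR effects 0 of 47 were called, where 0.0% of all tested genes were called. Here 1 of the 47 had an unadjusted p under 0.05, beside 459 of the 13058 tested genes.

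Within the 47 genes the MHS effect averaged over the sexes followed the length, GC content and level of the transcript only weakly. Length and GC content were those of the longest annotated transcript, which need not be the one expressed. Over the genes, which are not independent replicates and share their libraries, the averaged MHS effect had a Spearman rho of -0.08 with transcript length, -0.16 with GC content and -0.14 with mean level (n = 47). By sex, rho with GC content was -0.04 in MHS males and -0.25 in MHS females. For the MHS + RR effect averaged over the sexes, rho was -0.28 with length, -0.03 with GC content and -0.15 with level. By sex, its rho with length was -0.16 in males and -0.31 in females.

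The nuclear subunits of the other respiratory complexes, a list of 40 genes of complexes II to V, had mostly negative values as well. Of these, 13 fell in MHS males, 4 in MHS females and 19 with the sexes averaged, 0 rose, and the medians were -0.17, -0.07 and -0.11. The called genes with the lowest p were Sdha, the flavin subunit of complex II, which fell by 0.31 with the sexes averaged, Atp5a1 and Atp5c1 of the ATP synthase, which fell by 0.23 and 0.18, and Uqcrc1 of complex III, which fell by 0.25. Of 10 complex I assembly factors with other names, Nubpl, which delivers iron-sulfur clusters to complex I, fell by 0.29 (adjusted p = 0.0252), and the other 9 were not called. Of 12 regulators of mitochondrial gene expression 0 were called under MHS in either sex or with the sexes averaged. Among cell type markers, 4 of 10 ventricular cardiomyocyte genes fell in MHS males and 3 in MHS females, and the summed level of the list was 122270 to 124109 TPM in MHS males against 138733 to 144345 TPM in Control males, and 120553 to 130089 TPM in MHS females against 138920 to 146888 TPM in Control females. Fibroblast markers rose, 4 of 6 in males and 3 of 6 in females, with a sum of 1058 to 1196 TPM in MHS males against 656 to 773 TPM in Control males, and 973 to 1407 TPM in MHS females against 767 to 950 TPM in Control females. The part of these marker genes in the Nduf values was not tested.

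At day 56 most of the 47 genes had fold changes above 0 in the MHS + RR mice against their Controls, and Ndufa5 and Ndufa6 rose in females. In males 0 of 47 were called with limma, and 0.0842% of tested genes fell and 0.00766% rose, so hardly any gene was called there. An unadjusted p under 0.05 was found for 5 of the 47, beside 2345 of all 13058 tested genes. With libraries grouped by the time and treatment tags 19 of the 47 genes rose, but that grouping sets MHS + RR against libraries titled MHS at day 28. Of 13058 tested genes, 441 rose and 2117 fell in that grouping. Grouped by the titles, 10 of the 47 rose with array weights, where 1329 of the tested genes rose and 1757 fell. The median was 0.09 for the 47 genes and -0.04 for all tested genes, and 40 of 47 lay above 0. The TPM ranges of 10 genes were separate and higher and those of 0 separate and lower, where 4.76% and 15.0% of tested genes were so. In females the 2 called genes rose and 0 fell, where 0.544% of tested genes rose and 4.56% fell, with a median of 0.05 for the 47 genes and -0.09 for all tested genes. Ranges were separate and higher for 8 genes and separate and lower for 2, where 4.75% and 22.7% of tested genes were so. With each library corrected for transcript GC content and length, with or without the replicate block, the median of the 47 genes was 0.0059 in males and turned to -0.036 in females and -0.010 with the sexes averaged. It was 0.15 in males and 0.16 in females with median-of-ratios scaling. With libraries grouped by the tags, where those titled MHS stand as the Controls, it was 0.20 and 0.12.

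**Figure D3:**
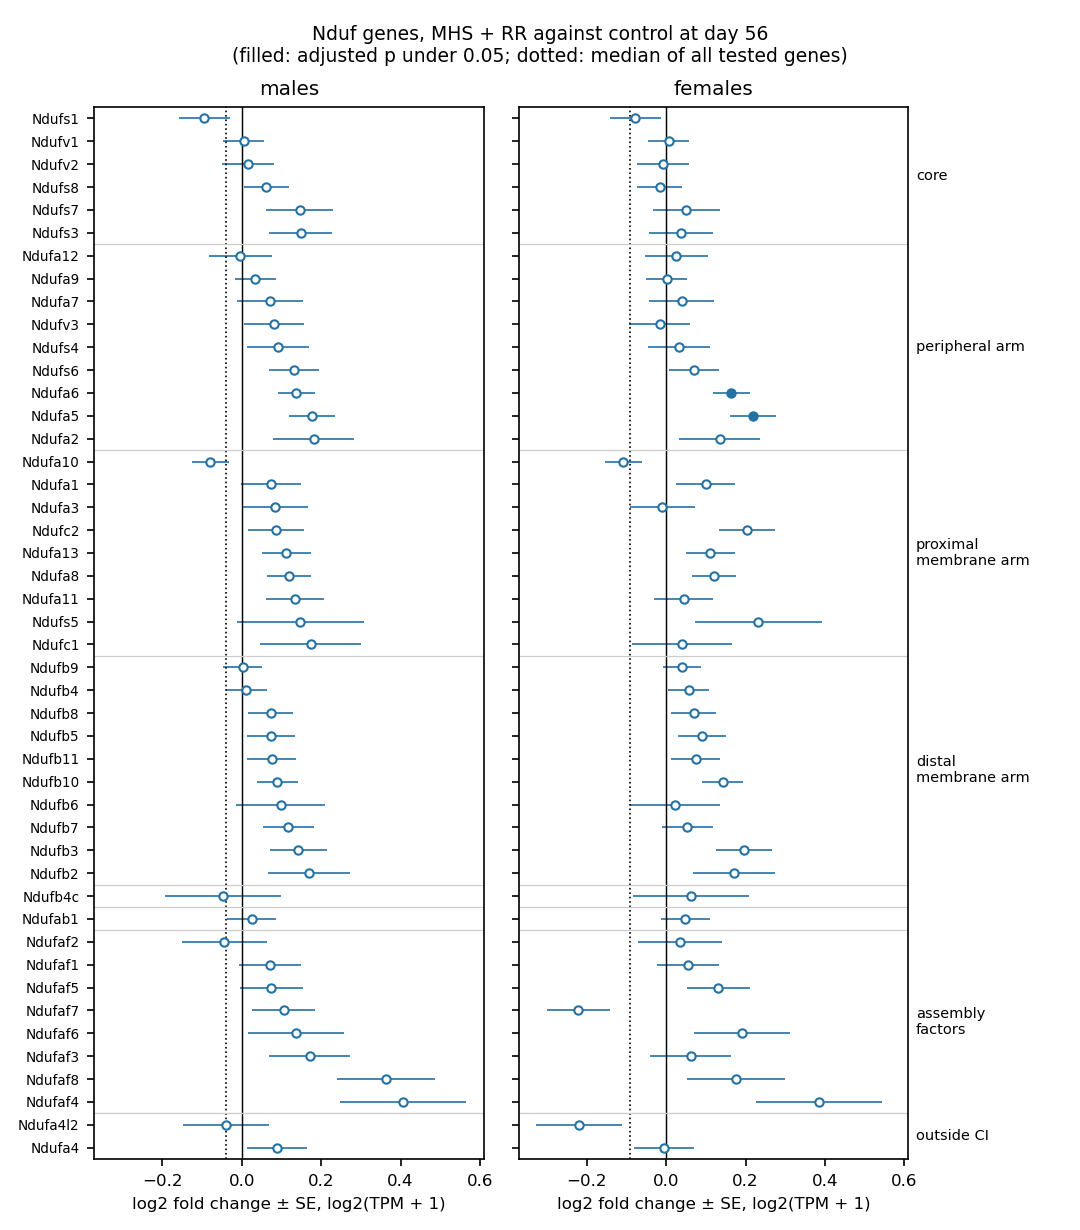
Log2 fold change of 46 Nduf genes in MHS + RR against Control mice at day 56, with its standard error, in males (left) and females (right), by role and then by the male value; filled points passed the adjusted p of 0.05 and the dotted line is the median of all tested genes. Most points lie right of 0 and of the dotted line, and Ndufa5 and Ndufa6 are filled in females.

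Ndufa5 rose in MHS + RR females. It had 1658, 1797 and 1802 TPM in MHS + RR females, against 1578, 1470 and 1466 TPM in Control females, and the groups were separate. Its log2 fold change was 0.22 ± 0.06 with an adjusted p of 0.0340, and the call was lost without female Control day 56 replicate 2 or 3 or without female MHS + RR replicate 2 or 3. Female MHS + RR replicate 3 is the library with Y-linked transcripts named above. In males Ndufa5 had 1693, 1891 and 1688 TPM under MHS + RR, against 1555, 1587 and 1513 TPM in Controls (0.18, adjusted p = 0.131), also with separate groups. Ndufa6, a subunit of the peripheral arm that anchors the acyl carrier protein, had 1186, 1285 and 1237 TPM in MHS + RR females, against 1145, 1079 and 1085 TPM in Control females (0.16, adjusted p = 0.0479). In males it had 1302, 1356 and 1236 TPM under MHS + RR, against 1154, 1184 and 1199 TPM in Controls (0.14, adjusted p = 0.146). The ranges of Ndufa6 were separate in both sexes, and its female call held in only 8 of the 24 fits that each left out 1 library.

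With the sexes averaged 7 of the 47 genes rose and 0 fell in MHS + RR mice, where 2.11% of tested genes rose and 15.5% fell. None was a core subunit. They were Ndufa5 (0.20, adjusted p = 0.0038), Ndufa6 (0.15, adjusted p = 0.0057), the proximal subunit Ndufa8 (0.12, adjusted p = 0.0393), the distal subunits Ndufb3 (0.17, adjusted p = 0.0264) and Ndufb10 (0.12, adjusted p = 0.0348), and the assembly factors Ndufaf4 (0.40, adjusted p = 0.0208) and Ndufaf8 (0.27, adjusted p = 0.0382). Ndufa8 had 1072, 1125 and 1045 TPM in MHS + RR males, against 979, 990 and 1016 TPM in Control males, and 974, 1029 and 1011 TPM in MHS + RR females, against 954, 883 and 936 TPM in Control females. Its groups were separate in both sexes. Ndufb3 had 470, 521 and 445 TPM in MHS + RR males, against 402, 461 and 438 TPM in Control males, and 450, 509 and 496 TPM in MHS + RR females, against 445, 427 and 398 TPM in Control females. Ndufb10 had 2063, 2290 and 2100 TPM in MHS + RR males, against 2085, 1930 and 2047 TPM in Control males, and 2030, 2134 and 2185 TPM in MHS + RR females, against 1896, 1898 and 1956 TPM in Control females. Both distal subunits were separate in females only, and Ndufb3 had a log2 fold change of -0.013 after correction for GC content and length. Ndufa5 and Ndufa6 held in all 24 fits that each left out 1 library and the other 5 in 15 to 23. The count of 7 became 2 without female Control day 56 replicate 3, 3 without male or female MHS + RR replicate 2, 4 without female Control day 56 replicate 2, female MHS + RR replicate 3 or male Control day 56 replicate 1, and 11 without female Control day 56 replicate 1. It was 1 without the 5 libraries left out together, and 29 with libraries grouped by the time and treatment tags, where those titled MHS stand as the Controls. Of 13058 tested genes, 82 rose and 350 fell without the 5 libraries, and 793 rose and 3491 fell in the grouping by the tags. Correction for GC content and length left 3 called genes, of which 1 fell.

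Ndufaf4, a factor that acts with Ndufaf3 in building the quinone-binding part of the enzyme, showed the largest of these values. It had 52.6, 48.8 and 57.8 TPM in MHS + RR males, against 28.0, 51.6 and 43.2 TPM in Control males, and 57.7, 54.6 and 54.7 TPM in MHS + RR females, against 44.9, 43.7 and 38.8 TPM in Control females. The females were separate, and the male groups overlapped through Control replicate 2, while Control replicate 1 was the lowest library of the series for this gene and was among those that stood apart by GC content and length. Ndufaf8, the partner of Ndufaf5, had 122, 118 and 119 TPM in MHS + RR males, against 95.8, 111 and 75.8 TPM in Control males, and 121, 124 and 98.0 TPM in MHS + RR females, against 110, 98.6 and 93.8 TPM in Control females. Here the males were separate and the females overlapped. The remaining assembly factors were not called. Ndufaf7 had opposite signs, with 23.2, 24.5 and 24.8 TPM in MHS + RR males, against 24.2, 22.3 and 20.8 TPM in Control males (0.11), and 22.9, 25.0 and 22.7 TPM in MHS + RR females, against 27.7, 27.8 and 27.4 TPM in Control females (-0.22, adjusted p = 0.103). Ndufaf3 had 44.3, 43.7 and 43.8 TPM in MHS + RR males, against 41.8, 40.9 and 34.4 TPM in Control males, and 37.4, 43.5 and 35.7 TPM in MHS + RR females, against 40.2, 34.5 and 36.7 TPM in Control females. Ndufaf5 had 14.9, 14.4 and 14.2 TPM in MHS + RR males, against 13.5, 13.9 and 13.8 TPM in Control males, and 14.7, 14.4 and 13.9 TPM in MHS + RR females, against 13.4, 12.4 and 13.1 TPM in Control females. Ndufaf5 was separate and higher in both sexes by small steps, and Ndufaf3 in males only. Ndufaf1 had 78.5, 98.3 and 91.2 TPM in MHS + RR males, against 79.1, 87.9 and 87.1 TPM in Control males, and 84.6, 83.1 and 93.1 TPM in MHS + RR females, against 84.3, 85.9 and 80.5 TPM in Control females. Ndufaf2 had 56.6, 64.1 and 60.1 TPM in MHS + RR males, against 58.1, 63.6 and 64.8 TPM in Control males, and 57.3, 65.0 and 64.6 TPM in MHS + RR females, against 59.5, 57.3 and 65.6 TPM in Control females. Ndufaf6, a factor of early assembly, had 25.5, 29.7 and 21.4 TPM in MHS + RR males, against 23.0, 24.2 and 21.8 TPM in Control males, and 23.1, 26.1 and 28.0 TPM in MHS + RR females, against 25.9, 18.6 and 23.2 TPM in Control females. These 3 overlapped in both sexes. Outside complex I, Ndufa4 had 4344, 4600 and 4182 TPM in MHS + RR males, against 4141, 4090 and 4105 TPM in Control males (0.09), and 4004, 4360 and 3821 TPM in MHS + RR females, against 4396, 3993 and 3846 TPM in Control females (-0.01). With the sexes averaged Ndufa4 was at 0.04 (adjusted p = 0.627), but after correction for GC content and length it was at -0.24 and passed (adjusted p = 0.0462). Ndufa4l2 had 47.4, 41.0 and 41.2 TPM in MHS + RR males, against 46.3, 40.0 and 47.1 TPM in Control males (-0.04), and 48.4, 42.1 and 37.1 TPM in MHS + RR females, against 48.6, 44.0 and 56.1 TPM in Control females (-0.22), with overlap in both sexes.

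The core subunits described here had 0 calls in the MHS + RR comparisons. Ndufv1 had 880, 876 and 824 TPM in MHS + RR males, against 888, 853 and 830 TPM in Control males (0.00 ± 0.05), and 868, 880 and 834 TPM in MHS + RR females, against 850, 848 and 872 TPM in Control females (0.01 ± 0.05). The groups overlapped throughout. Ndufs1 had values below 0 without a call, at 606, 559 and 612 TPM in MHS + RR males, against 604, 660 and 634 TPM in Control males (-0.09), and 655, 612 and 617 TPM in MHS + RR females, against 648, 672 and 667 TPM in Control females (-0.08). Ndufs7 had 1073, 1147 and 1012 TPM in MHS + RR males, against 1010, 992 and 917 TPM in Control males (0.15, adjusted p = 0.365), and 939, 1053 and 948 TPM in MHS + RR females, against 983, 943 and 911 TPM in Control females (0.05). Its male groups were separate by a narrow gap. Ndufs3 had 880, 953 and 851 TPM in MHS + RR males, against 817, 850 and 756 TPM in Control males (0.15), with separate ranges, and 822, 869 and 757 TPM in MHS + RR females, against 850, 767 and 769 TPM in Control females (0.04). Ndufs3 was thus separate in males only, by a narrow gap between MHS + RR replicate 3 (850.9 TPM) and Control replicate 2 (850.2 TPM). Ndufs8 had 642, 690 and 658 TPM in MHS + RR males, against 668, 612 and 626 TPM in Control males (0.06), and 580, 628 and 602 TPM in MHS + RR females, against 623, 599 and 607 TPM in Control females (-0.02). Ndufv2 had 986, 1050 and 990 TPM in MHS + RR males, against 1012, 982 and 998 TPM in Control males (0.02), and 925, 966 and 962 TPM in MHS + RR females, against 979, 909 and 983 TPM in Control females (-0.01). Both overlapped in both sexes. Among the proximal subunits, Ndufa10 had 1071, 1064 and 1093 TPM in MHS + RR males, against 1213, 1079 and 1122 TPM in Control males (-0.08), and 1014, 992 and 1000 TPM in MHS + RR females, against 1029, 1095 and 1116 TPM in Control females (-0.11, adjusted p = 0.165). It was separate and lower in females.

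**Figure D4:**
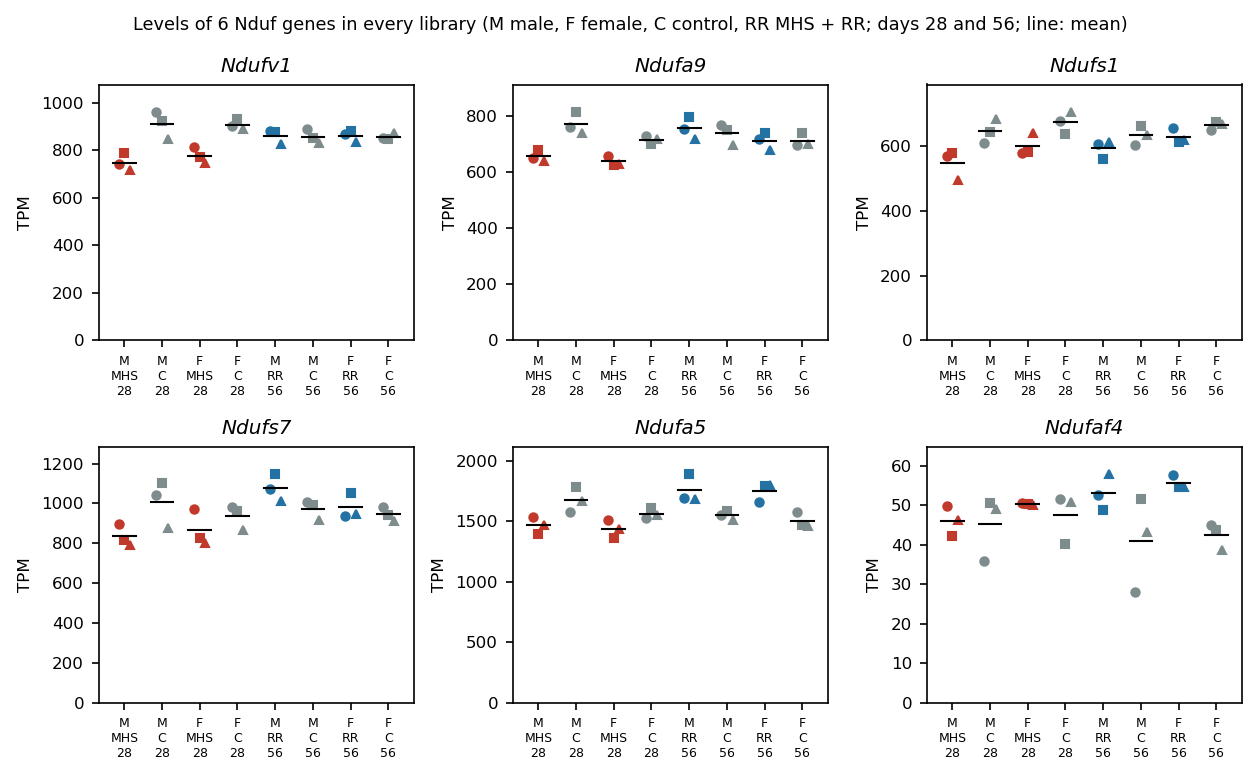
TPM of Ndufv1, Ndufa9, Ndufs1, Ndufs7, Ndufa5 and Ndufaf4 in every library (vertical axis from 0), with replicates 1, 2 and 3 as circle, square and triangle and the group mean as a line. Ndufv1 and Ndufa9 are lowest in the MHS groups, Ndufa5 is highest in the MHS + RR groups, and Ndufaf4 has a low male Control library on each day (35.8 TPM on day 28 and 28.0 TPM on day 56).

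The MHS + RR effect and the MHS effect were set against each other with a test of their difference, each effect taken against its own Controls. In males the difference was called for 9 of 47 genes, all with the higher value for MHS + RR, where 1.13% of tested genes were higher and 7.21% lower. The median difference was 0.25 for the 47 genes and -0.11 for all tested genes, and all 47 lay above that all-gene median, which itself moved by 0.13 with median-of-ratios scaling and by 0.12 with quantile normalization. The median of the 47 genes was 0.40 with median-of-ratios scaling and 0.12 with GC content and length corrected. The largest were Ndufs7 (0.41 ± 0.12, adjusted p = 0.0382), Ndufa5 (0.37 ± 0.08, adjusted p = 0.0104) and Ndufs6 (0.33 ± 0.09, adjusted p = 0.0272). For Ndufs6 the day 56 values were 1360, 1496 and 1271 TPM in MHS + RR males, against 1293, 1245 and 1222 TPM in Control males. Ndufa13 (0.30), Ndufb11 (0.29), Ndufv1 (0.29), Ndufa9 (0.27), Ndufa6 (0.26) and Ndufa8 (0.25) completed the list. At day 56 Ndufa9 had 752, 797 and 719 TPM in MHS + RR males, against 767, 750 and 697 TPM in Control males. Ndufb11 had 888, 960 and 860 TPM in MHS + RR males, against 902, 854 and 813 TPM in Control males. Ndufa13 had 675, 768 and 632 TPM in MHS + RR males, against 644, 649 and 621 TPM in Control males. In these 3 genes the day 56 groups overlapped. Ndufa5, Ndufa6 and Ndufa8 had separate male groups on both days, lower under MHS and higher under MHS + RR. The gap of Ndufa6 at day 28 was narrow, with 1141.9 TPM in MHS replicate 1 and 1143.3 TPM in Control replicate 3. At day 28 Ndufa6 had 1142, 1075 and 1082 TPM in MHS males, against 1193, 1246 and 1143 TPM in Control males, and Ndufa8 had 951, 878 and 883 TPM in MHS males, against 1038, 981 and 962 TPM in Control males.

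Only Ndufa5 was called in all 24 fits of this male difference that each left out 1 library. The count of 9 became 1 without male Control day 28 replicate 2, male MHS replicate 3 or male MHS + RR replicate 2, 3 without male MHS replicate 2 or male Control day 56 replicate 3, 5 without male Control day 28 replicate 1 or male Control day 56 replicate 1, 19 without male Control day 28 replicate 3, and 0 without the 5 libraries left out together. In females the difference was called for Ndufa5 alone (0.35 ± 0.08, adjusted p = 0.0275), where 0.383% of tested genes were higher and 2.08% lower, and it was called in 17 of the 24 fits that each left out 1 library. The female median was 0.10 for the 47 genes and -0.09 for all tested genes. For the 47 genes it was 0.20 with median-of-ratios scaling and 0.021 with GC content and length corrected.

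**Figure D5:**
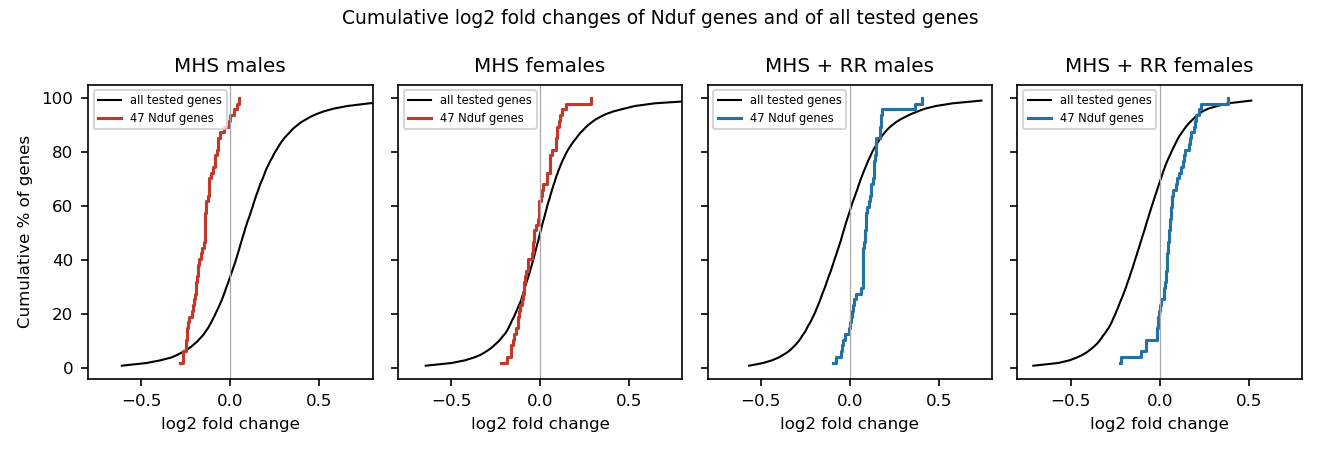
Cumulative share of genes (vertical axis, %) by log2 fold change (horizontal axis) for the 47 Nduf genes (coloured steps) and all tested genes (black), for MHS in males and females and MHS + RR in males and females. The Nduf steps lie left of the black line in MHS males (medians -0.14 and 0.08), close to it in MHS females (-0.03 and 0.00) and right of it over most of the range in both MHS + RR panels.

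Between Control groups 1 gene was called. Female Controls had a lower level of Ndufa6 than male Controls, over both days (-0.14, adjusted p = 0.0465), where 0.437% of tested genes were lower and 0.796% higher in females. Its levels were 1064, 1036 and 1067 TPM in females and 1193, 1246 and 1143 TPM in males at day 28, and 1145, 1079 and 1085 TPM in females and 1154, 1184 and 1199 TPM in males at day 56. The female libraries lay below the male ones of the same day in both cases, yet the call held in only 6 of the 24 fits that each left out 1 library. The other 46 genes were not called. Of the 47, 12 had an unadjusted p under 0.05, beside 2406 of all 13058 tested genes, and 41 lay below 0. The median was -0.08 for the 47 genes and 0.07 for all tested genes. For day 56 against day 28, 0 of 47 genes were called in Control males or in Control females with limma, and 3 in males and 0 in females had an unadjusted p under 0.05. Of all 13058 tested genes 0.0% were called, and 391 in males and 500 in females had an unadjusted p under 0.05.

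In the MHS + RR comparison with the sexes averaged, 1 of the 40 genes of complexes II to V rose (Cox6c of complex IV, 0.17, adjusted p = 0.0266) and 0 fell, with a median of 0.06. Tmem186, an assembly factor of complex I with another name, fell by 0.18 (adjusted p = 0.0257). Of the 12 regulators, Ppargc1b, a coactivator of mitochondrial biogenesis, fell by 0.43 (adjusted p = 0.019) and Yy1, a transcription factor with binding sites near many mitochondrial genes, fell by 0.22 (adjusted p = 0.0289). Markers of other cells moved in this comparison too, with 4 of 6 endothelial, 4 of 6 macrophage, 3 of 6 fibroblast and 5 of 6 erythroid genes lower. Of all tested genes 15.5% fell here. That was 2026 genes, which became 914 with median-of-ratios scaling. The endothelial list summed to 431 to 499 TPM in MHS + RR males against 514 to 581 TPM in Control males, and to 402 to 464 TPM in MHS + RR females against 504 to 623 TPM in Control females. Their part in the Nduf values was not tested.

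The promoters of 40 of the 47 genes were read from RefSeq (assembly GRCm38.p6), as windows of 250 bases before and 50 after the start, to see which letters genes that moved together share. Both strands were searched for the letters of 4 factors of respiratory genes. AAGATGG, the core of the YY1 motif, was in the windows of 8 genes (20.0%), against 7.28% of 27025 genes with a window and 8.17% of the tested genes. The 10-letter NRF1 palindrome that is printed for Ndufaf4 was in 3 (7.5%, against 1.07% and 2.27%), CCGGAAG, a core of ETS factors, in 6 (15.0%, against 9.93% and 19.5%), and AAGGTCA, read by estrogen-related receptors, in 3 (7.5%, against 5.38% and 3.91%). The YY1 letters began 10 to 38 bases after the start in all 8 genes, which were Ndufa3, Ndufa9, Ndufaf8, Ndufb8, Ndufc1, Ndufs4, Ndufs6 and Ndufs7. They hold an ATG, and in 7 of the 8, all but Ndufaf8, this ATG was an annotated start codon (GENCODE M21). The stretches around it are shown for the 4 genes that were called lower in MHS males, with the YY1 letters in capitals.
Ndufa9, chr6:126849098-126849127, minus strand: gcattgtgggagAAGATGGcggccgccgtc
Ndufs4, chr13:114388045-114388071, minus strand: tttgcctacaggAAGATGGcggcggtc
Ndufs6, chr13:73328433-73328461, minus strand: agggtcaccggcAAGATGGcggcggtgct
Ndufs7, chr10:80249461-80249490, plus strand: aaggccgaggccAAGATGGcggcgctggcg
In all 4 the match was followed by CGGC, which was so in 5 of the 8 genes. Of the 9 genes that fell in MHS males, 7 had a window and 4 of these held the YY1 letters, beside 4 of the 33 others. This contrast rests on calls that were not all stable. Only 2 of the 9, Ndufv1 and Ndufa9, held in all 24 fits that each left out 1 library. The calls of Ndufs4, Ndufs6 and Ndufs7 lay near the threshold and were lost in most of those fits. Of the 12 genes that fell under MHS with the sexes averaged, 9 had a window and 3 of these held the YY1 letters, beside 5 of the 31 others. Neither contrast was tested. Of those 9 windows, 0 held the letters of NRF1, ETS or the estrogen-related receptors. Ndufv1, the gene with the clearest fall, held none of the 4.

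Of the genes that rose in MHS + RR mice, Ndufaf4 held the NRF1 palindrome, which began 113 bases before the start, and it is shown in capitals within the 150 bases upstream.
Ndufaf4, chr4:24897933-24898082, plus strand: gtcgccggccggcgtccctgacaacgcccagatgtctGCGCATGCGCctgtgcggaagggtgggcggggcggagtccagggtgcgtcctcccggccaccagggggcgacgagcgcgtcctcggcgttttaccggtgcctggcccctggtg
The other 2 genes with the palindrome were Ndufa11 and Ndufaf5, with 0 calls in any comparison of MHS or MHS + RR with Controls. A match is a description of letters and says nothing of a factor's binding in these ventricles.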

How the data were processed

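The authors deposited 1 table of TPM for 24 libraries. Submitters' processing notes name STAR, Salmon and mm9, without versions or parameters. Each column summed to 1e+06, so sequencing depth is unknown, no counting error could be given, and a gene's TPM also depends on all others. Libraries were made with a stranded mRNA kit. Of the columns 0 were without a sample, and 0 pairs of libraries were identical. Labels do not name the animal behind each library, so a p-value here describes only how far these libraries spread, which may be technical.

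Genes with at least 1 TPM in at least 3 libraries were kept. Levels were compared as log2(TPM + 1), which understates changes of low genes, in limma 3.58.1 (R 4.3.3) with 1 mean per group, an intensity trend and 16 residual degrees of freedom. There were 13 two-sided comparisons, each adjusted by the Benjamini-Hochberg method over all 13058 genes and called under 0.05. The script was tested on simulated data. Alternatives were a pseudocount of 0.1, other filters, scalings and groupings, array weights, a replicate block and leaving out libraries. Transcript GC content and length came by symbol from GENCODE M21 (99.3% of tested genes), another build than mm9, and promoters from RefSeq. The longest annotated transcript of each symbol was used for GC content and length. Members and gene lists were chosen with earlier results of these data known. Values in every library were given for the core subunits (1 gene of the 47 enters the counts and medians, and its own values are not reported here), the assembly factors, Ndufa4, Ndufa4l2, members called in a difference of effects and those with the lowest p under MHS. Other members named were chosen after their values were seen.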

Additional observations from a re-analysis of the deposited data

Results flagged for a closer look

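The MHS + RR effect minus the MHS effect passed limma's test (adjusted p under 0.05 over all tested genes) for 9 Nduf genes in males and 1 in females, each effect taken against its own Controls. The male differences, on the log2 scale, were 0.41 for Ndufs7, 0.37 for Ndufa5, 0.33 for Ndufs6, 0.30 for Ndufa13, 0.29 for Ndufb11, 0.29 for Ndufv1, 0.27 for Ndufa9, 0.26 for Ndufa6 and 0.25 for Ndufa8. The female difference was 0.35 for Ndufa5. The effects compared share no library, since each day has its own Controls. Groups of 3 libraries are too small for a test of single outlying samples.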

How the results depend on the processing

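Counts below are of the 47 Nduf genes called, beside 9 in MHS males, 1 in MHS females, 12 with the sexes averaged under MHS, 0 in MHS + RR males, 2 in MHS + RR females, 7 with the sexes averaged in MHS + RR, 9 and 1 for the MHS + RR minus MHS difference in males and females, and 1 for female against male Controls. A pseudocount of 0.1 and a minimum of 5 TPM kept every count within 1.5 times. Without a filter, MHS males had 5, MHS + RR females 0, the MHS + RR average 4, the male difference 5 and the Control comparison 0. Median-of-ratios scaling gave 0 in MHS females, MHS + RR females, the female difference and the Control comparison. Quantile normalization gave 15 in MHS males, 6 in MHS females, 21 in the MHS average, 0 in MHS + RR females, 3 in the female difference and 0 in the Control comparison. Of 13058 tested genes it called 641 lower and 612 higher in MHS males, against 329 and 1007 without it. The figures were 411 and 425 in MHS females, and 1274 and 1143 in the MHS average. Correction for GC content and length gave 4 in MHS males, 2 in MHS females, 0 in MHS + RR females, 3 in the MHS + RR average, 3 in the male difference, 0 in the female difference and 0 in the Control comparison. Of 12966 genes with these values it called 327 lower and 1265 higher in MHS males. The figures were 1289 and 191 in the MHS + RR average, and 823 and 111 in the male difference. Array weights gave 20, 4, 20, 10, 8, 17, 25, 3 and 10 in the order listed. Of all 13058 tested genes, array weights also called more, lower and higher, in each of these comparisons. In MHS males 496 were lower and 1611 higher, against 329 and 1007 without the weights. In MHS + RR males they were 1757 and 1329, against 11 and 1. In the male difference they were 2193 and 677, against 941 and 147. In the Control comparison they were 265 and 1718, against 57 and 104. A fit of only the groups compared gave 0 in MHS males, MHS females, MHS + RR females, the female difference and the Control comparison, 3 in the MHS + RR average and 1 in the male difference. Of 13058 tested genes that fit called 143 lower and 470 higher in MHS males, and 89 and 126 in MHS females. Without the 5 libraries left out together, the counts were 4, 0, 7, 0, 1, 1, 0, 0 and 0 in the order listed.

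Grouping by the time and treatment tags gave 0 in MHS males, MHS females, the MHS average and the Control comparison, 19 in MHS + RR males, 4 in MHS + RR females, 29 in the MHS + RR average, and, for Control day 56 against day 28, 9 in males and 1 in females. This setting exchanges 12 libraries between groups. Of 13058 tested genes it called 2117 lower and 441 higher in MHS + RR males. In MHS + RR females it called 1280 lower and 228 higher, and in the MHS + RR average 3491 and 793. Its MHS comparison sets libraries titled Control at day 56 against those titled Control at day 28. Its MHS + RR comparison sets MHS + RR against libraries titled MHS, and its Control day comparison sets MHS against Control at day 28 by the titles.

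The replicate block gave 16 in MHS males, 2 in MHS females, 1 in MHS + RR males, 12 in the MHS + RR average, 18 in the male difference and 2 in the female difference. Of 13058 tested genes it called 402 lower and 1114 higher in MHS males, against 329 and 1007 without the block. The figures were 2251 and 372 in the MHS + RR average, against 2026 and 275. In the male difference they were 1196 and 220, against 941 and 147. The replicate block with correction for GC content and length gave 2 in MHS females, 0 in MHS + RR females, 4 in the MHS + RR average, 4 in the male difference, 0 in the female difference and 0 in the Control comparison. In the 4 pairs of groups of the same sex and day, the deviations of libraries of the same number had correlations of -0.28 to 0.26. With 3 libraries a group these values cannot tell whether the numbers pair the samples. Libraries of the same number were not compared across days.

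Leaving out 1 library at a time gave 2 to 15 in MHS males, 0 to 1 in MHS females, 10 to 17 in the MHS average, 0 to 3 in MHS + RR females, 2 to 11 in the MHS + RR average, 1 to 19 in the male difference, 0 to 1 in the female difference and 0 to 1 in the Control comparison. MHS + RR males, both female minus male differences and both Control day comparisons stayed at 0. Where a fit left 2 libraries in a group, the spread was still estimated over all groups.

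Directions turned for few named genes. With GC content and length corrected, with or without the replicate block, the MHS + RR average of Ndufa4 was -0.24 and that of Ndufb3 -0.013. With grouping by the tags, the MHS average was 0.055 for Ndufa10 and 0.030 for Ndufaf7, and the MHS + RR average was 0.088 for Ndufa10 and 0.16 for Ndufaf7. Over the genes and comparisons with at least 1 call in any setting, and the settings that kept all libraries or left out 5 together, 1580 values stayed on their side of the threshold, 197 newly passed it, 159 no longer did and 8 turned. The cause was not tested. The unknown depth limits the low assembly factors most, since the precision of a level of 13.7 TPM cannot be given.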
